A study of Mus musculus with 6 samples.

Results

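Cathepsins are the proteases of the lysosome, and 10 of their genes were followed in mouse lung: Ctsa, Ctsb, Ctsc, Ctsd, Ctse, Ctsh, Ctsk, Ctsl, Ctss and Ctsz. They were listed by name as lysosomal cathepsins, with earlier results of these data known. All 10 have an entry among the 23238 gene symbols of the tables. The list leaves out 13 other cathepsin genes, among them Ctsf, Ctso and Ctsw, which are described apart. The RNA came from lung tissue of wild-type mice given PM, in 3 samples, or its vehicle PBS (phosphate-buffered saline), in 3 samples, both by the route abbreviated i.t. Both groups share the wild-type genotype. The labels spell out neither PM nor the route, and give no dose, duration, age or strain. The series title calls the exposure chronic, and the question is how it changes lung gene expression.

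Cathepsins are made as inactive precursors, sorted to lysosomes by mannose 6-phosphate receptors and activated there by cleavage at acid pH. Ctsb, Ctsc, Ctsh, Ctsk, Ctsl, Ctss and Ctsz encode cysteine proteases related to papain, Ctsd and Ctse encode aspartic proteases, and Ctsa encodes a serine carboxypeptidase. In lung they are best known from macrophages, which carry large amounts of them, and from alveolar type 2 cells, where cathepsin H acts on surfactant protein precursors. Cathepsins released from cells can cleave collagen and elastin, and cystatins and stefins hold them in check.

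PBS replicates 1 and 2 were identical, with the same count in every one of 23282 entries, so they hold 1 set of values. Which of these samples the values belong to is not known. The pair was counted as 1 sample. This left 3 PM libraries to set against 2 PBS libraries, with total counts from 7410200 to 8827202. Nothing in the labels says that each sample is a different animal, and the p-values below reflect only how far these samples spread, which may be technical. Markers of lung epithelium were present in every library: Sftpc stood at 9232 to 12218 CPM in PM lung and at 11299 and 9540 CPM in PBS lung. CPM here is the count scaled to a common library total after TMM (trimmed mean of M values) scaling. Erythroid markers summed to 5082 to 16056 CPM in PM libraries, against 47962 CPM in PBS replicate 1 and 12927 CPM in PBS replicate 3.

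Cathepsin transcripts as a family took a larger part of the PM libraries, a description with no test. The 10 genes together took 0.268%, 0.3% and 0.253% of all counts in PM replicates 1, 2 and 3, against 0.177% and 0.197% in PBS replicates 1 and 3. Of the 10 genes, 1 rose (Ctsk) and 0 fell at a Benjamini-Hochberg adjusted p below 0.05, from edgeR's quasi-likelihood test over 14057 genes. In the same test 0.142% of all genes rose and 0.0854% fell. At an unadjusted p below 0.05, 5 members were higher (Ctsb, Ctsc, Ctsd, Ctsk and Ctsz) and 0 lower, where 7.26% of all genes were higher and 6.05% lower. For 8 members every PM library was higher than both PBS libraries, as it was for 15.5% of genes, and for Ctsa every PM library was lower, as for 16.1%. Ctse alone overlapped. The median log2 fold, PM minus PBS, was 0.55 over the 10 members and 0.01 over all genes tested. The median of the 10 stayed between 0.43 and 0.69 under the 16 alternative settings. Over the 3 tested cathepsin genes outside the list, Ctsf, Ctso and Ctsw, the median was -0.31. In bulk tissue, more cells of a type that makes a transcript and more of it per cell cannot be told apart.

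**Figure D1:**
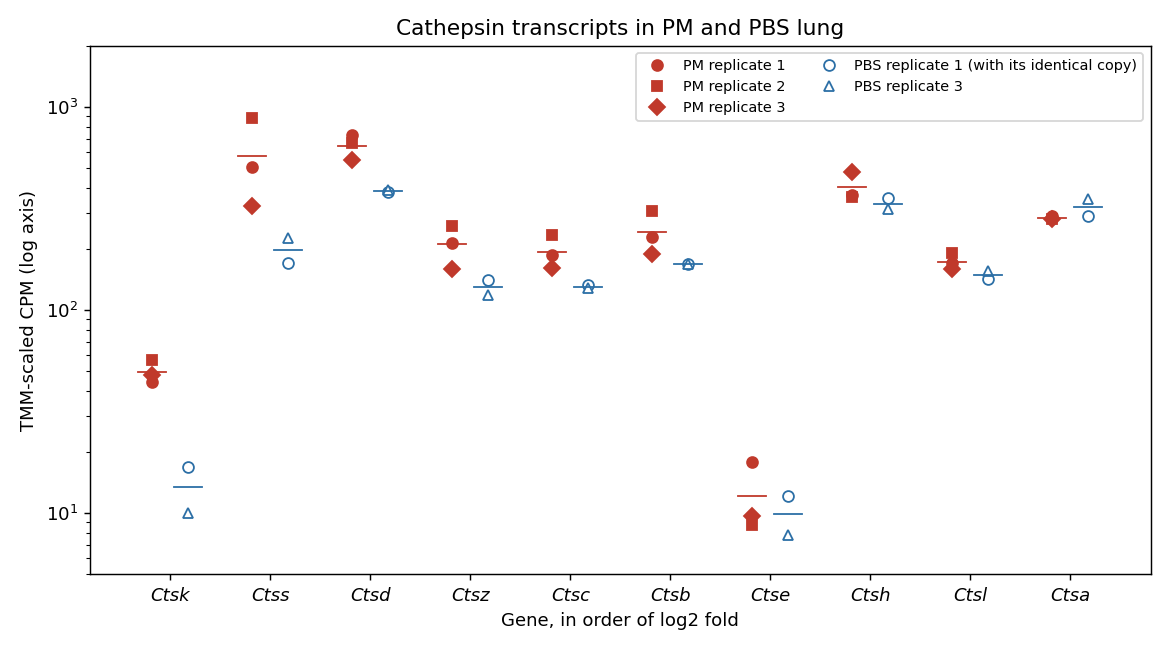
TMM-scaled CPM of the 10 cathepsin genes on a log axis, in the 3 PM libraries (filled symbols) and the 2 distinct PBS libraries (open symbols), with group means as short lines. Ctsk stands at 44.2 to 56.6 CPM in PM lung and at 16.8 and 10 CPM in PBS lung, and only Ctse has overlapping groups.

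The number of members called depended on single libraries. Without PBS replicate 1 or without PBS replicate 3, 0 of the 10 were called at the same threshold, where 0.00688% and 0.0411% of all genes rose. Without PM replicate 1 it was again Ctsk alone, with 0.0795% of all genes. Without PM replicate 2 there were 2, Ctsd and Ctsk, with 0.561% of all genes. Without PM replicate 3 there were 5, Ctsb, Ctsc, Ctsd, Ctsk and Ctsz, with 1.87% of all genes. DESeq2 called 4, Ctsc, Ctsd, Ctsk and Ctsz, with 1.9% of all genes higher and called. Without a filter on low counts edgeR called Ctsc, Ctsd and Ctsk, with 0.915% of all genes, and with all 6 tables as deposited the same 3 members, with 2.5%. The fit to all 6 tables enters the identical PBS pair as separate samples, which understates the PBS spread. Calls made only with all 6 tables, here and below, are therefore not reliable. An adjusted p below 0.10 added Ctsd to Ctsk, with 0.896% of all genes. limma-voom called Ctsk alone, with 0.0854%.

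Ctsk and Ctss are neighbours on chromosome 3, on the same strand and 17423 bases apart, and had the largest folds of the family. Ctsd, on chromosome 7, had the smallest p after Ctsk. The windows around the transcription starts of Ctsk and Ctss are shown for their folds, that of Ctsd for its p and its motifs, and that of a Ctsa start because it holds the same motif pair as Ctsd. Sequences are RefSeq's for GRCm38.p6, 250 bases before to 50 after the start, written 5′ to 3′ on the gene's strand. Capitals mark CACGTG, the core of the element bound by TFEB and its relatives in lysosomal gene promoters, and CATGTG or its reverse complement, the core of the M-box bound by MITF. Both strands were searched. No capitals overlap between the 2 motifs.
Ctsk, chr3:95498960-95499259, plus strand: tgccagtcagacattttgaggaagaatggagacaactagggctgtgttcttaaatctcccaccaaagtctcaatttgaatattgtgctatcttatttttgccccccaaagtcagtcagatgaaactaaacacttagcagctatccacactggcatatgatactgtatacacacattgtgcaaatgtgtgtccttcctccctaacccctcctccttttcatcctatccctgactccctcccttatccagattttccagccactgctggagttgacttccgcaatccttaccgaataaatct
Ctss, chr3:95526536-95526835, plus strand: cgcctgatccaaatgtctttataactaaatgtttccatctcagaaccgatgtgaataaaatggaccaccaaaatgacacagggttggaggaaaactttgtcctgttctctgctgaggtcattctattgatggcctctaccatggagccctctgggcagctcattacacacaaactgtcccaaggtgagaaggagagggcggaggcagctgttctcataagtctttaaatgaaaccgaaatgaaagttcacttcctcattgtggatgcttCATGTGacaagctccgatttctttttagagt
Ctsd, chr7:142387778-142388077, minus strand: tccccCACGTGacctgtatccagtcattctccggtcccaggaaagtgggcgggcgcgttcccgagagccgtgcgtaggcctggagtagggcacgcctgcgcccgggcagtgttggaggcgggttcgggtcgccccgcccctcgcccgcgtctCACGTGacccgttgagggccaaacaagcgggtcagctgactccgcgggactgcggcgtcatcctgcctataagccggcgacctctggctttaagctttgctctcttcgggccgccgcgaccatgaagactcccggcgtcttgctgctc
Ctsa, later start, chr2:164833523-164833822, plus strand: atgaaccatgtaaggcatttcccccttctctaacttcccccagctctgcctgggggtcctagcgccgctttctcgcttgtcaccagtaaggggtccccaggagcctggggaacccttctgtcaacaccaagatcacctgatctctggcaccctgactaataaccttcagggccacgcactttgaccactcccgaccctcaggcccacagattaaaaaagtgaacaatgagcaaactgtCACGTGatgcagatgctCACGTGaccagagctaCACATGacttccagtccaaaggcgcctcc

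The Ctsd window held CACGTG at 2 places, starting 245 and 98 bases before the transcription start. The window at the later Ctsa start also held it at 2 places, with 1 CATGTG match, while the window of the earlier Ctsa start at chr2:164832622-164832921 held neither. Ctsl had 1 CACGTG. Ctss had 1 CATGTG, 19 bases after its start, and the Ctsk, Ctsc and Ctsz windows had neither motif. Of the 7 members with a RefSeq window, CACGTG was thus in 3 and CATGTG in 2. Of all 32851 windows of the same length, from 27025 genes, 7.15% held CACGTG, 0.594% held it at least at 2 places, and 14.2% held CATGTG. These shares are by window, while members were counted by gene, with a match in any of its windows, so the numbers are not directly comparable. Ctsb, Ctse and Ctsh were not matched.

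Cathepsin K, known for cleaving collagen in bone resorption, had the clearest difference. Ctsk (ENSMUSG00000028111.4, GRCm38 chromosome 3, 95499256 to 95509362, 8 exons) was counted 378, 395 and 379 times in PM replicates 1, 2 and 3, against 145 and 81 times in PBS replicates 1 and 3. Scaled, it averaged 49.5 ± 6.4 CPM in PM lung (SD, n = 3) and 13.4 ± 4.81 CPM in PBS lung (SD, n = 2), a ratio of means of 3.7. The PM libraries lay close together, and all stood well above both PBS libraries. The log2 fold of Ctsk was 1.88 ± 0.23 SE (edgeR, Benjamini-Hochberg adjusted p = 0.014), the 5th smallest p of all genes tested. The fold was 2.31 (edgeR, Benjamini-Hochberg adjusted p = 0.0591) without PBS replicate 1 and 1.56 (edgeR, Benjamini-Hochberg adjusted p = 0.0883) without PBS replicate 3, so the call was lost when either was left out. Its Benjamini-Hochberg adjusted p ranged from 1.8e-10 to 0.0883 over the 16 alternatives in edgeR, DESeq2 and limma-voom.

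Cathepsin S, which antigen-presenting cells use to degrade the invariant chain of MHC class II, had the next largest fold but varied most among PM libraries. Ctss (chromosome 3, 95526786 to 95556403) stood at 508, 885 and 327 CPM in PM replicates 1, 2 and 3, against 170 and 226 CPM in PBS replicates 1 and 3. Every PM library lay above both PBS libraries, with PM replicate 2 far above the others. The log2 fold of 1.53 ± 0.54 SE did not pass the test (edgeR, Benjamini-Hochberg adjusted p = 0.376), and leaving out PM replicate 2 gave 1.08, whereas leaving out PM replicate 3 gave 1.81. Cd74, the invariant chain itself, also had its highest value in PM replicate 2, at 787, 1385 and 425 CPM in PM lung against 523 and 410 CPM in PBS lung, and the groups overlapped.

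Cathepsins B and L, the broadly expressed endopeptidases of the cysteine class, differed less. Ctsb (chromosome 14, 63122462 to 63145923) stood at 230, 307 and 189 CPM in PM replicates 1, 2 and 3, against 168 and 169 CPM in PBS replicates 1 and 3. PM replicate 3 was only slightly above the PBS pair, and the log2 fold was 0.52 ± 0.18 SE (edgeR, Benjamini-Hochberg adjusted p = 0.252). Ctsl (chromosome 13, 64359337 to 64370890) had 170, 190 and 160 CPM in PM lung and 143 and 155 CPM in PBS lung, with a log2 fold of 0.22 ± 0.12 SE. The groups of Ctsl were separate but close, and the fold did not pass the test (edgeR, Benjamini-Hochberg adjusted p = 0.466).

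Reads of Ctsb and Ctsl can be shared with other genes, since strand use in counting is not given in the sources used here. Exons of Ctsb overlap those of Fdft1, a sterol synthesis gene on the opposite strand, over 774 bases, and Fdft1 had a log2 fold of 0.10. In the GENCODE M21 annotation Ctsl exons overlap the gene model Gm47123, and 27.2% of the 50-base words of Ctsl transcripts also occur in transcripts of other genes. The same share was 35.7% for Ctsd, from the overlapping model Gm49369, and 0% for Ctse, Ctsh, Ctsk, Ctss and Ctsz.

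The exopeptidases of the cysteine class trim proteins from their ends. Cathepsin C, or dipeptidyl peptidase I, activates the serine proteases of neutrophil, mast cell and cytotoxic granules. Ctsc (chromosome 7, 88278085 to 88310888) stood at 187, 235 and 161 CPM in PM replicates 1, 2 and 3, against 133 and 128 CPM in PBS replicates 1 and 3. All PM libraries lay above the PBS pair, whose values were close, and the log2 fold was 0.58 ± 0.15 SE (edgeR, Benjamini-Hochberg adjusted p = 0.128). Cathepsin Z, a carboxypeptidase, gave 215, 259 and 160 CPM for Ctsz (chromosome 2, 174427493 to 174439039) in PM lung and 141 and 119 CPM in PBS lung. The groups did not overlap, and the log2 fold was 0.70 ± 0.19 SE (edgeR, Benjamini-Hochberg adjusted p = 0.158). Ctsz overlaps Nelfcd on the opposite strand by 10 exon bases.

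Cathepsin H, the aminopeptidase linked to surfactant protein processing, followed another order among the libraries. Ctsh (chromosome 9, 90054152 to 90076089) stood at 367, 362 and 480 CPM in PM replicates 1, 2 and 3, against 355 and 313 CPM in PBS replicates 1 and 3. Only PM replicate 3 was clearly above PBS, and the log2 fold was 0.27 ± 0.14 SE (edgeR, Benjamini-Hochberg adjusted p = 0.449). Of the surfactant genes on the list of substrates, Sftpb had a log2 fold of -0.02 and Sftpc of 0.08.

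Cathepsin D, the main aspartic protease of lysosomes, missed the threshold narrowly. Ctsd (chromosome 7, 142375911 to 142388038) was counted 6199, 4639 and 4330 times in PM replicates 1, 2 and 3, against 3295 and 3152 times in PBS replicates 1 and 3. It averaged 645 ± 90.9 CPM in PM lung (SD, n = 3) and 386 ± 5.21 CPM in PBS lung (SD, n = 2), and the lowest PM library, at 546 CPM, was above both PBS libraries. The log2 fold was 0.74 ± 0.13 SE (edgeR, Benjamini-Hochberg adjusted p = 0.0525). In DESeq2 the Benjamini-Hochberg adjusted p was 0.000135, and over the 16 alternatives it ranged from 0.000135 to 0.444, with folds from 0.65 to 0.85.

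Cathepsin E, an aspartic protease of endosomes best known from stomach and blood cells, was the least abundant member. Ctse (chromosome 1, 131638306 to 131675505) had 17.9, 8.74 and 9.71 CPM in PM replicates 1, 2 and 3, against 12.1 and 7.78 CPM in PBS replicates 1 and 3. The groups overlapped, with PM replicate 1 alone above PBS replicate 1. The log2 fold was 0.29 ± 0.34 SE (edgeR, Benjamini-Hochberg adjusted p = 0.776) and was -0.10 without PM replicate 1.

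**Figure D2:**
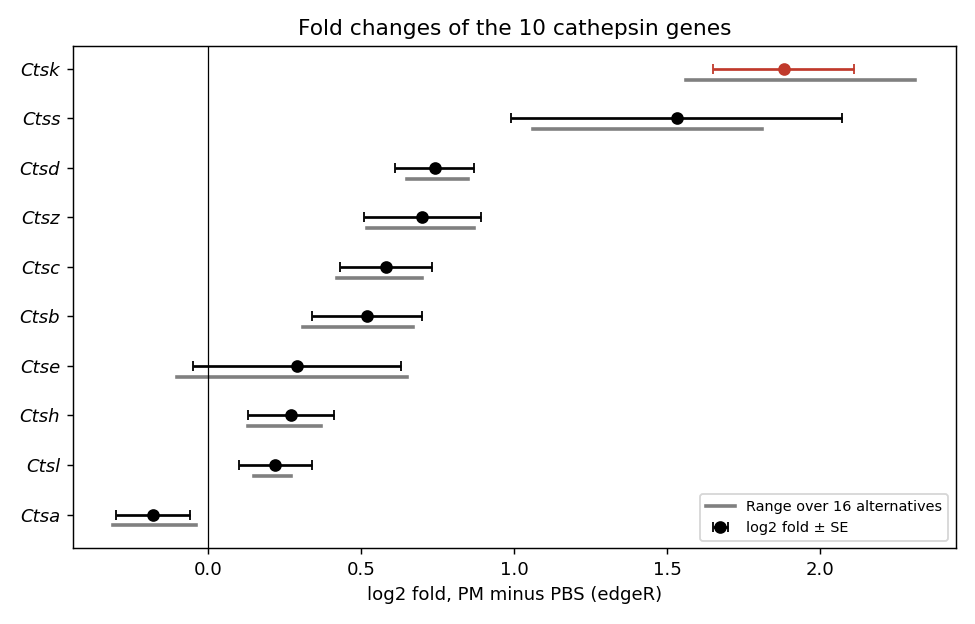
Log2 fold, PM minus PBS, of each cathepsin gene with its standard error from edgeR (points and whiskers, red where the adjusted p is below 0.05), and the range of the fold over 16 alternative settings (grey bars). Ctsk lies between 1.56 and 2.31 throughout, Ctse spans 0 and Ctsa lies below 0.

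Cathepsin A, a carboxypeptidase that also protects beta-galactosidase and neuraminidase 1 in a lysosomal complex, was the member whose PM values were not higher. Ctsa (chromosome 2, 164832873 to 164841032, plus strand) stood at 290, 280 and 281 CPM in PM replicates 1, 2 and 3, against 291 and 351 CPM in PBS replicates 1 and 3. PM replicate 1 and PBS replicate 1 were nearly equal, and the log2 fold was -0.18 ± 0.12 SE (edgeR, Benjamini-Hochberg adjusted p = 0.544). Its partners Neu1 and Glb1 had log2 folds of 0.25 and 0.10, neither past the test.

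The counts of Ctsa moved together with those of Pltp, the phospholipid transfer protein gene on the opposite strand, whose exons overlap those of Ctsa over 311 bases. Pltp was counted 2316, 1816 and 2068 times in PM replicates 1, 2 and 3, against 2339 and 2699 times in PBS replicates 1 and 3. The ratio of Ctsa to Pltp counts was 1.07, 1.07 and 1.08 in PM lung and 1.07 and 1.05 in PBS lung. That ratio varied by 0.908% (coefficient of variation over 5 libraries), less than the 2.96% that independent counting of reads would give. The fold of Pltp was -0.20, and the values of both genes cannot be told apart in these counts, so the level and fold of Ctsa are uncertain. Of the other genes within 20000 bases of a member and with at least 20 counts in each library, only Neurl2, which overlaps Ctsa on the opposite strand, and Zswim3 also had ratios varying less than independent counting gives, both at low counts.

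**Figure D3:**
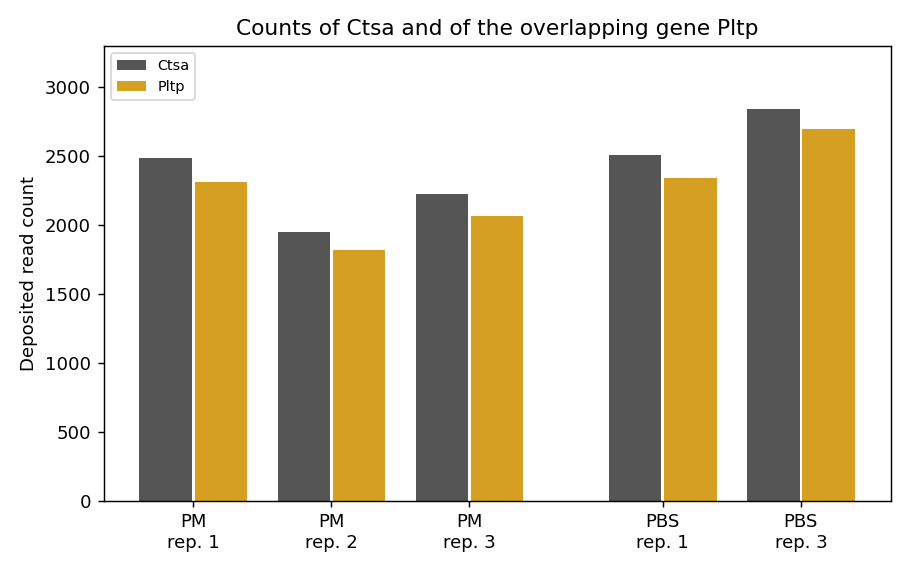
Deposited read counts of Ctsa (grey) and Pltp (yellow) in the 3 PM and the 2 distinct PBS libraries, on an axis that starts at 0. The bars of each pair keep a ratio of 1.05 to 1.08 in every library.

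Levels of different genes were compared per length, as CPM per kilobase of annotated exon. In PM lung Ctss, Ctsd and Ctsh led at means of 422, 303 and 249, followed by Ctsz at 147, Ctsa at 77.2, Ctsb at 51, Ctsc at 36.5, Ctsk at 32.8, Ctsl at 28.1 and Ctse at 5.7. In PBS lung the order was Ctsh at 206, Ctsd at 181, Ctss at 146, Ctsz at 90.2, Ctsa at 87.3, Ctsb at 35.5, Ctsc at 24.4, Ctsl at 24.2, Ctsk at 8.86 and Ctse at 4.66. Neighbours in this order whose libraries overlapped were Ctss with Ctsd, Ctsd with Ctsh, Ctsb with Ctsc, Ctsc with Ctsk and Ctsk with Ctsl in PM lung, and Ctsz with Ctsa and Ctsc with Ctsl in PBS lung. The exon length of Ctsl, 6168 bases, includes long untranslated parts. Per kilobase of coding sequence Ctsl averaged 173 in PM lung and 149 in PBS lung, and it then stood above Ctsc and Ctsk in both groups. On that coding scale Ctsb, at 238 in PM lung and 166 in PBS lung, stood above Ctsz, at 230 and 142, in both groups, and above Ctsa, at 192, in PM lung. The SD in PM lung was 58.5 for Ctsb and 54.2 for Ctsz, larger than these gaps, so the place of Ctsb there is uncertain. In PBS lung Ctsa, at 217, also stood above Ctss, at 194, and Ctsl above Ctsz. Both gaps were smaller than the SD in PBS lung, 38.2 for Ctss and 16.9 for Ctsz, so these orders are uncertain too. Ctsk stood above Ctse and below the other members on the coding scale in both groups, at 50.2 in PM lung and 13.6 in PBS lung.

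The make-up of the family's counts also differed. Ctss made up 18.4%, 27.2% and 13.9% of all cathepsin counts in PM replicates 1, 2 and 3, against 9.41% and 12.1% in PBS replicates 1 and 3. Ctsk made up 1.6%, 1.74% and 2.02% in PM lung, against 0.928% and 0.536% in PBS lung. The shares of Ctsa, which are shared with Pltp, were 10.5%, 8.61% and 11.9% in PM lung and 16% and 18.8% in PBS lung. Ctsl shares were 5.85% to 6.78% in PM lung and 7.9% and 8.3% in PBS lung. Shares of Ctsb, Ctsc, Ctse, Ctsh and Ctsz overlapped between the groups, as did those of Ctsd.

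**Figure D4:**
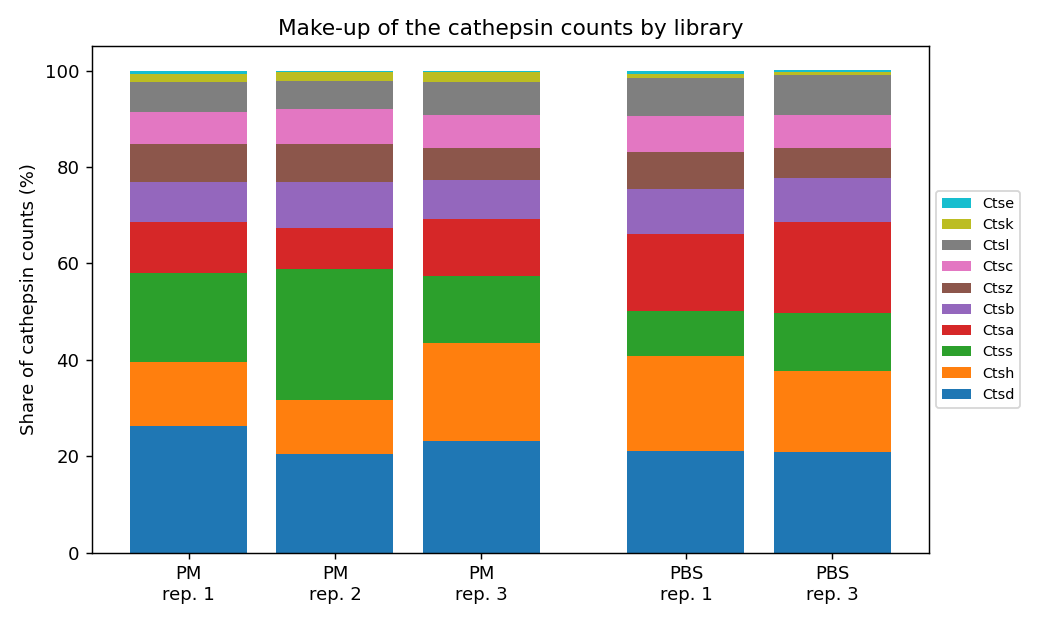
Share of each gene in the summed counts of the 10 cathepsin genes, in percent, for the 3 PM and the 2 distinct PBS libraries. Ctss takes 13.9% to 27.2% in PM libraries and 9.41% and 12.1% in PBS libraries, while the Ctsa segment is smaller in PM libraries.

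The PM libraries were not alike. PM replicate 2 had the highest PM value for 6 members (Ctsb, Ctsc, Ctsk, Ctsl, Ctss and Ctsz), PM replicate 1 for 3 (Ctsa, Ctsd and Ctse) and PM replicate 3 for Ctsh alone. PM replicate 3 had the lowest PM value for 6 members. On the scale of log2(CPM + 0.5) relative to the PBS mean, the family medians were 0.62, 0.82 and 0.31 in PM replicates 1, 2 and 3. Markers of interstitial and monocyte-derived macrophages, 9 genes, had medians of 0.94, 1.69 and 0.57 on that scale, the same order. That order was also found for markers of dendritic cells (0.22, 0.88 and -0.19), of club and goblet cells (1.28, 1.92 and 1.01) and of fibroblasts (-0.18, -0.06 and -0.58). The eosinophil list had it too (1.73, 2.68 and 1.13), but from 1 tested gene, Ccr3, with 17, 30 and 9 counts in PM replicates 1, 2 and 3. Markers of alveolar macrophages, 7 genes, had 1.21, 0.22 and 0.98, and neutrophil markers, 6 genes, had 0.49, -0.54 and 2.08. Ctsk, at 1.73, 2.08 and 1.84, was highest in PM replicate 2, as the family median was. Its values in PM replicates 1 and 3, from 378 and 379 counts, lay too close together for their order to be read. The share of counts on Rn45s, a ribosomal RNA, also had the order of the family medians. It was 23.6%, 25.4% and 15.7% in PM replicates 1, 2 and 3, against 18.2% and 16.3% in PBS replicates 1 and 3. The part of Rn45s in these differences was not tested.

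Some macrophage and monocyte markers were higher in PM lung beside the cathepsins, and their part in the cathepsin differences was not tested. The 9 interstitial and monocyte-derived macrophage markers summed to 968 to 1388 CPM in PM libraries and to 1030 and 976 CPM in PBS libraries, ranges that overlap. The largest part of each sum was Apoe, at 651, 670 and 644 CPM in PM lung and 740 and 730 CPM in PBS lung. Apoe was lower in every PM library, so these sums say little of the other markers on that list. Of the 9, 6 lay above PBS in all PM libraries, as did 15.5% of all genes tested. Of the 7 alveolar macrophage markers, 0 rose and 3 lay above PBS in all PM libraries, with sums of 341 to 501 CPM in PM lung and 279 and 360 CPM in PBS lung. Most of each of these sums was Car4, at 287, 225 and 298 CPM in PM lung and 225 and 283 CPM in PBS lung. Of the 5 monocyte markers, 1 rose, the chemokine receptor Ccr2, where 0.142% of all genes rose. Ccr2 stood at 63 ± 9.9 CPM in PM lung (SD, n = 3) and 25.9 ± 0.232 CPM in PBS lung (SD, n = 2). The monocyte marker sums were 167 to 195 CPM in PM lung and 84.9 and 101 CPM in PBS lung. Neutrophil marker sums were 206 to 923 CPM in PM lung and 267 and 131 CPM in PBS lung, and dendritic cell sums 106 to 163 CPM in PM lung and 91.2 and 106 CPM in PBS lung. None of the macrophage, monocyte, neutrophil or dendritic cell markers was at 0 in any library.

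**Figure D5:**
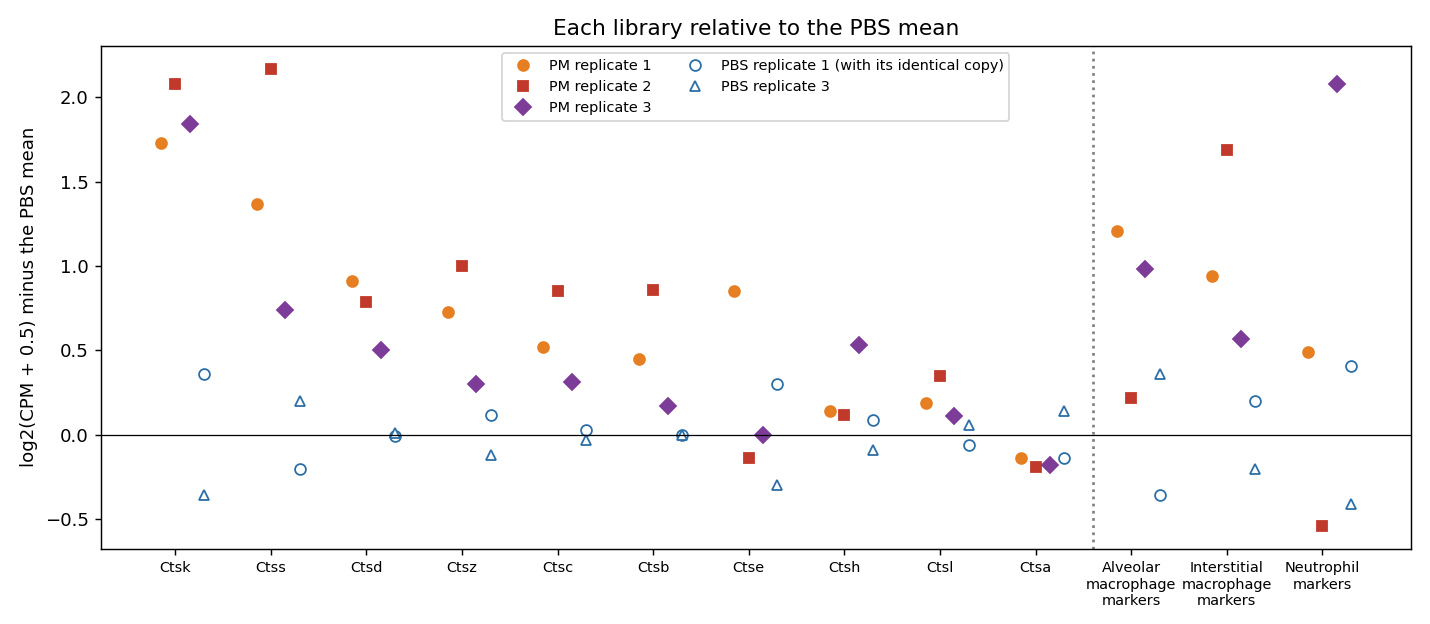
Each library as log2(CPM + 0.5) minus the PBS mean, for the 10 cathepsin genes and, right of the dotted line, as the median of 3 marker lists. Ctss stands at 2.17 in PM replicate 2 and 0.74 in PM replicate 3, whereas Ctsk stays between 1.73 and 2.08 in the PM libraries.

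Alveolar type 2 markers, the cells known for cathepsin H, had a median log2 fold of 0.02 over 6 genes, with sums of 20616 to 23652 CPM in PM lung and 22621 and 18405 CPM in PBS lung. Fibroblast markers had a median of -0.15 over 7, endothelial markers of -0.35 over 3 and alveolar type 1 markers of -0.26 over 3. Of these 0 were called, where 0.142% of all genes rose and 0.0854% fell. In these lists 2, 2 and 3 markers lay below PBS in every PM library, as did 16.1% of all genes. The fibroblast marker Pdgfra missed the threshold narrowly, with a log2 fold of -0.78 ± 0.14 SE (edgeR, Benjamini-Hochberg adjusted p = 0.0525). Erythroid markers had a median of -1.21 over 5 tested genes. Markers of cartilage and bone, where cathepsin K is also at home, summed to 0.234 to 0.573 CPM in PM libraries and to 0.811 and 0.247 CPM in PBS libraries, and none of the 5 had enough counts to be tested. Club and goblet cell markers had a median log2 fold of 1.89 over 6 tested genes, 0 of them called, with sums of 17337 to 33323 CPM in PM lung and 21508 and 22270 CPM in PBS lung. Most of that sum was Scgb1a1, a club cell secretory protein. In every PM library 3 goblet cell genes were higher than in PBS, as were 15.5% of all genes. Clca1 stood at 288, 1161 and 33.9 CPM in PM replicates 1, 2 and 3 and had 0 counts in both PBS libraries, and its fold stays the highest of the 6, with the same list median, when PBS is set at the floor of 3 counts. The mucin gene Muc5b stood at 39.4, 102 and 18.5 CPM in PM lung and 4.4 and 2.22 CPM in PBS lung. Agr2 stood at 7.01, 16.1 and 2.02 CPM in PM lung and 0.348 and 1.23 CPM in PBS lung. These 3 genes were highest in PM replicate 2 and lowest in PM replicate 3, as Ctss was, and their part in the cathepsin differences was not tested. Eosinophil and B cell markers had 0 called of 1 and 3 tested.

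Of 13 cathepsin inhibitor genes in the tables, 6 were tested and 0 were called by edgeR. At an unadjusted p below 0.05, 1 was higher, Cstb, and 1 lower, Cst3, where 7.26% of all genes were higher and 6.05% lower. Folds ran from -0.44 to 2.66, with a median log2 fold of 0.24. The median was -0.32 when at least 20 counts in 2 libraries were required, -0.31 without PM replicate 1 and -0.48 without PM replicate 3, and 0.71 and 0.77 without PBS replicate 1 and PBS replicate 3. Cstb, stefin B, a cytosolic inhibitor of cysteine cathepsins, stood at 108, 114 and 88.3 CPM in PM lung and 60.4 and 63.2 CPM in PBS lung. Its groups were well apart, and its log2 fold was 0.74 ± 0.14 SE (edgeR, Benjamini-Hochberg adjusted p = 0.0525). Cstb was called by DESeq2, and by edgeR without a filter, without PM replicate 3, with all 6 tables, with the replicate number as a block and at an adjusted p below 0.10. Cst3, the secreted inhibitor cystatin C, pointed the other way, at 381, 342 and 373 CPM in PM lung and 437 and 553 CPM in PBS lung, with a log2 fold of -0.44 ± 0.13 SE (edgeR, Benjamini-Hochberg adjusted p = 0.151). Stfa2l1, a stefin A-like gene, stood at 1.4, 1.15 and 11.2 CPM in PM lung and 0.927 and 0.494 CPM in PBS lung, so PM replicate 3 carried its difference. It belongs to a cluster of near-identical copies, and its counts are uncertain for that reason.

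For the machinery of activation and sorting, 7 genes were tested. By edgeR 0 were called, as by DESeq2 and limma-voom, 0 had an unadjusted p below 0.05, and the median log2 fold was -0.02, from -0.26 to 0.46. Gnptab, a subunit of the enzyme that adds the mannose 6-phosphate tag, had 0.46, Lgmn, the legumain protease that cleaves cathepsin precursors, 0.25, and Sort1, a sorting receptor, -0.26. The receptors for mannose 6-phosphate, M6pr and Igf2r, had -0.01 and -0.14.

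All 4 genes of the MiT/TFE factors, which switch on lysosomal genes, had positive folds, with a median log2 fold of 0.57. By edgeR 0 were called, as by DESeq2 and limma-voom. At an unadjusted p below 0.05 in edgeR 3 were higher, where 7.26% of all genes were higher. Tfec, a member restricted largely to macrophages, stood at 9.23, 8.03 and 4.67 CPM in PM lung and at 2.09 and 4.2 CPM in PBS lung, with a log2 fold of 1.22. Tfeb had a log2 fold of 0.58 and Tfe3 of 0.55, each with all PM libraries above both PBS libraries. Mitf had 0.22, with overlapping groups. In edgeR the Benjamini-Hochberg adjusted p was 0.245 for Tfec, 0.26 for Tfe3, 0.288 for Tfeb and 0.698 for Mitf. Of the members with a window, their CACGTG motif was in those of Ctsd, Ctsl and Ctsa, with log2 folds of 0.74, 0.22 and -0.18, and not in those of Ctsk, Ctss, Ctsz and Ctsc.

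Among 10 substrates and partners of cathepsins, 0 were called by edgeR, 1 was higher at an unadjusted p below 0.05 and the median log2 fold was 0.09. Over all genes, 7.26% were higher at that unadjusted p. Psap, the saposin precursor that cathepsin D cleaves, came nearest, at 1185, 1437 and 1042 CPM in PM lung and 706 and 817 CPM in PBS lung. The groups were apart, and its log2 fold was 0.68 ± 0.15 SE (edgeR, Benjamini-Hochberg adjusted p = 0.0692). Psap was called by DESeq2, and by edgeR under the same 5 alternatives as Cstb. Napsa, napsin A, an aspartic protease of alveolar type 2 cells, had 0.19. Col1a1 and Eln, matrix proteins that cathepsins can cleave, had log2 folds of -0.30 each, with overlapping groups.

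Of 8 granule proteases that cathepsin C activates, 3 had enough counts to be tested, with log2 folds of -1.08 for Gzma, -0.77 for Gzmb and -1.17 for Cma1. By edgeR 0 were called, and 1 was lower at an unadjusted p below 0.05, where 6.05% of all genes were lower. Gzma, a granzyme of cytotoxic lymphocytes, stood at 18.7, 13.3 and 9.08 CPM in PM lung and 25.7 and 32.5 CPM in PBS lung, with all PM libraries lower. The fold of Gzma was -1.08 ± 0.27 SE (edgeR, Benjamini-Hochberg adjusted p = 0.119), and DESeq2, or edgeR without a filter, called it. Of the genes with too few counts, Prtn3, proteinase 3, had 9, 3 and 15 counts in PM lung and 2 and 9 in PBS lung. Elane, neutrophil elastase, had 1 count in PM replicate 1 and 0 in every other library.

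Genes shared with the osteoclast, the cell for which cathepsin K is best known, had positive folds in 5 of 7 cases, against 51.1% of all genes. At an unadjusted p below 0.05 in edgeR 2 were higher, Acp5 and Atp6v0d2, where 7.26% of all genes were higher. By edgeR 0 of the 7 were called, and their folds ran from -0.57 to 1.71. Their median was 0.80, and 0.17 without PM replicate 3, 0.46 without PBS replicate 3 and 0.47 by limma-voom. Atp6v0d2, a subunit of the proton pump, stood at 47.2, 54.9 and 49.1 CPM in PM lung and at 10.4 and 26.7 CPM in PBS lung, with a log2 fold of 1.44 ± 0.36 SE (edgeR, Benjamini-Hochberg adjusted p = 0.158). Acp5, tartrate-resistant acid phosphatase, stood at 23.1, 35.8 and 19.7 CPM in PM lung and at 12.1 and 12.6 CPM in PBS lung, with a log2 fold of 1.08 ± 0.26 SE (edgeR, Benjamini-Hochberg adjusted p = 0.102). Both had all PM libraries above both PBS libraries, as Ctsk did. Both were called by DESeq2 and with all 6 tables, Acp5 also without a filter and without PM replicate 3, and Atp6v0d2 without PBS replicate 3. Dcstamp, a fusion protein, had 1.71 with overlapping groups, led by PM replicate 2, while Calcr, the calcitonin receptor, had -0.57.

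The remaining cathepsin genes gave little signal. Of 13, only Ctsf, Ctso and Ctsw had enough counts to be tested, at log2 folds of -0.31, -0.05 and -0.31, each with overlapping groups and none called by edgeR, DESeq2 or limma-voom, with 0 at an unadjusted p below 0.05. Ctsw, a protease of cytotoxic lymphocytes, averaged 5.17 ± 2.88 CPM in PM lung (SD, n = 3) and 6.36 ± 1.66 CPM in PBS lung (SD, n = 2). Ctsg, the neutrophil cathepsin G, had 0 counts in all libraries, which allows up to 0.34 to 0.405 CPM in a library, a floor of 3 counts that covers counting error only.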

How the data were processed

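Per the labels, lung RNA was extracted with an easy-BLUE kit (Intron Biotechnology) and libraries were prepared with the SENSE mRNA-Seq kit of Lexogen. TopHat, Cufflinks and mm10 are named in the submitters' processing notes; for their roles and versions, the counting program, annotation and strand use, the sources used here give nothing. The deposited values are raw counts per gene symbol, and the identical PBS pair was counted once.

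An entry with no gene name and no count was left out, and of symbols listed repeatedly only the most counted entry was used, which set aside 0.0246% of counts. Counts were filtered with filterByExpr, TMM-scaled and tested PM against PBS by edgeR 4.0.16 (R 4.3.3) with the robust quasi-likelihood test, two-sided, with no covariates, Benjamini-Hochberg adjusted over 14057 genes and called below 0.05. The SE was derived as |log2 fold| over √F. The procedure was tested on simulated counts, with 100 genes changed 2-fold and 100 changed 4-fold. It recovered 63% of the 2-fold and 87% of the 4-fold changes, and 18 of its 168 calls were false. That is a larger false share than the threshold of 0.05 aims at. The changed genes were drawn only from those above a minimum mean count, so recovery at low counts was not tested. Exon lengths, positions (GRCm38, the assembly of mm10) and overlaps came from GENCODE M21, and promoter windows from RefSeq.

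Alternatives were RLE and upper quartile scaling, 2 other filters, counts without Rn45s and haemoglobin genes, DESeq2 1.42.0, limma-voom (limma 3.58.1), non-robust estimation, each library left out, all 6 tables, the replicate number as a block and an adjusted p of 0.10. The members and gene lists were chosen with earlier results of these data known. Named genes are all 10 members and, in each pathway list, called genes and the 3 with the smallest p, with others named for their role after their values were seen. Depth limits the precision of low genes to their counts. The test result of 1 macrophage marker is not reported here.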

Additional observations from a re-analysis of the deposited data

How the results depend on the processing

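Of 160 member folds under an alternative, 142 kept their direction and their side of the threshold, 15 newly passed it, 2 no longer passed and 1 turned round. The alternative with an adjusted p below 0.10 changes only the threshold, so its folds equal the main ones by construction. The fold of Ctsk was 1.56 to 2.31 with a library left out, and that of Ctse -0.10 to 0.65, negative without PM replicate 1. With a library left out, folds were 0.32 to 0.67 for Ctsb, 0.42 to 0.70 for Ctsc, 0.65 to 0.85 for Ctsd and 0.53 to 0.87 for Ctsz. Genes called over all genes numbered 32, with 1 to 427 when a library was left out, and members called 1, with 0 to 5. Where a PBS library is left out, the lone PBS library is assumed to vary like the PM libraries. Without a filter 275 genes and 3 members were called (Ctsc 0.57, Ctsd 0.74, Ctsk; 0.915% of all genes higher and called), and by DESeq2 382 genes and 4 members (Ctsc 0.58, Ctsd 0.74, Ctsz 0.70). With all 6 tables as deposited, 635 genes and 3 members were called (Ctsc 0.57, Ctsd 0.75, with 2.5% higher). That fit enters the identical PBS pair as separate samples, so its p-values are too small. At an adjusted p below 0.10 there were 206 genes and 2 members (Ctsd 0.74; 0.896% higher), and limma-voom called 17 genes, Ctsk among them. With the replicate number as a block, 353 genes and 3 members were called (Ctsd 0.71, Ctsz 0.52 and Ctsk, with 1.57% higher). In that fit PM replicate 2 has no PBS partner and adds nothing to the folds. The numbers are not shown to pair samples. Deviations of same-numbered PM and PBS samples correlated at -0.0268 and 0.0664 over genes. With only 2 PBS libraries, their deviations from the PBS mean mirror each other, so these correlations cannot decide whether the numbers pair samples. List medians moved as follows. The inhibitor median was 0.77 without a filter, -0.32 with at least 20 counts in 2 libraries, -0.28 with all 6 tables, and -0.48 to 0.77 with a library left out. The osteoclast-type median was 0.47 by limma-voom, 0.63 with the replicate block and 0.17 to 0.95 with a library left out. The sorting median was -0.07 with the replicate block and -0.07 to 0.03 with a library left out, and the substrate median 0.00 to 0.27. The cause of these shifts was not tested. RLE and upper quartile scaling moved the median of all genes by 0.0019 and 0.005 on the log2 scale and changed no member's call. Ctse, with 61 to 104 counts in most libraries, is the member whose precision is most limited by depth.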

Other observations

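Genes next to the members gave a local comparison, chosen by position within 20000 bases after the values of the members were known. Arnt, 2015 bases from Ctsk on the same strand, stood at 32.4, 30.1 and 34.8 CPM in PM replicates 1, 2 and 3, against 24 and 30.3 CPM in PBS replicates 1 and 3, with overlapping groups and a log2 fold of 0.26 ± 0.17 SE. The ratio of Ctsk to Arnt counts was 1.36, 1.88 and 1.37 in PM lung and 0.7 and 0.331 in PBS lung. Rab7b, an endosomal GTPase gene 13189 bases from Ctse, stood at 21.5, 28.1 and 15.9 CPM in PM lung and 14.7 and 13.3 CPM in PBS lung, with a log2 fold of 0.63 ± 0.24 SE (edgeR, Benjamini-Hochberg adjusted p = 0.287). Morf4l1, 15575 bases from Ctsh, had a log2 fold of -0.26 ± 0.14 SE.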
